A study of Mus musculus with 4 samples.

Results

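The 9 genes Gm17026, Gm9611, Gm7995, Gm2959, Gm8005, Gm8126, LOC115486427, Gm3594 and Gm3629 lie on mouse chromosome 14 and were listed together as a family of duplicated genes. They were chosen by the IgD peaks on them in these same data, and all 9 were found among 49595 genes of the RefSeq table used for positions. All are annotated as protein-coding and carry provisional names only, so no function is assigned to them here. Gm3594 and Gm3629 lie at 6 to 7 Mb and the other 7 at 41 to 44 Mb (mm10). All peaks in the genes or within 50000 bp of them were counted, and those on the genes and the widest around them are described below. As the peaks chose the genes, the counts are descriptions and carry no test.

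The peaks come from chromatin immunoprecipitation followed by sequencing of pro-B cells, an early stage of B cell development in bone marrow, sorted from wild-type (WT) mice as B220+ IgM- CD43+ cells, fixed with formaldehyde and sonicated. An antibody to mouse IgD was used in 2 libraries and mouse IgG, as the control, in 2 others. The deposited peak lists compare IgD 1 with IgG 1 (pair 1, 11375 peaks) and IgD 2 with IgG 2 (pair 2, 40628 peaks). The lists hold no separate IgG values and no expression values, so the cell type could not be checked against its markers, and whether the libraries came from separate mice is not stated in the labels.

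IgD is an immunoglobulin class best known as a receptor on the surface of mature B cells, and the series title places it in the nucleus of pro-B cells. Provisional names beginning with Gm or LOC are given to gene models that have not received a name based on function. In a tandem duplication, copies of a gene lie side by side and resemble each other. A short sequencing read from such a copy can match several places, and how such reads were treated is not given in the sources used here.

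Likeness among the 9 genes was checked in their promoters, taken from RefSeq (GRCm38.p6) as the 250 bases before and 50 after each annotated start. The table held 11 starts for the 9 genes, with 2 each for Gm2959 and Gm8126. A run of 15 bases, CTAGAATCTTCTGTG, was present in 7 of the 11 promoters, 1 for each gene except Gm3629 and Gm7995. It was chosen after the promoters had been compared. The 90 bases around it are shown for the 7 genes, read along the gene, so that the promoters can be compared, with the shared run in capitals.

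Gm17026 (chr14:42260065-42260154, minus strand): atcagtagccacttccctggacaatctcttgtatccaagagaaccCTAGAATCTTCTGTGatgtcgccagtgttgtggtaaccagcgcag
Gm8005 (chr14:42439690-42439779, minus strand): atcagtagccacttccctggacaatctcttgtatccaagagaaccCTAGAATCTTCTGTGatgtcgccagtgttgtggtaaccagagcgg
Gm9611 (chr14:42297375-42297464, minus strand): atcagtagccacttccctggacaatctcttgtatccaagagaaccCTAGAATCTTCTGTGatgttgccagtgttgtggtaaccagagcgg
LOC115486427 (chr14:41967944-41968033, minus strand): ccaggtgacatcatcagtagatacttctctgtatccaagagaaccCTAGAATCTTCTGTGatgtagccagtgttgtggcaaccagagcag
Gm3594 (chr14:6444593-6444682, minus strand): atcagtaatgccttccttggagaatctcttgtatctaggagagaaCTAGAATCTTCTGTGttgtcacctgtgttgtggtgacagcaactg
Gm2959, start 2 (chr14:42463773-42463862, plus strand): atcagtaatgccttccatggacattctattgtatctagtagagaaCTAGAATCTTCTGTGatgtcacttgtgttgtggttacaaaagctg
Gm8126, start 2 (chr14:43258541-43258630, plus strand): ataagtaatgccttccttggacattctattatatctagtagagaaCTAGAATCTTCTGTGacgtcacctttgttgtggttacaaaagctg

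Compared position by position with Gm17026, without gaps, Gm8005 differed at 2 of the 90 positions and Gm9611 at 3. LOC115486427, Gm3594 and Gm2959 each differed at 21 and Gm8126 at 24. A count without gaps overstates the distance where bases are out of register, so whole promoters were also aligned with gaps. Over the whole promoters, local alignments of the 21 pairs among these 7 spanned 202 to 304 columns with 69.7 to 98.1% identity. The closest pair was Gm9611 and Gm8005 (98.1%), followed by Gm17026 and Gm8005 (97.8%). Gm2959 and Gm8126 were 94.8% identical at their second starts, although the genes lie 726 kb apart, and both are on the plus strand. LOC115486427 shared 89.0 to 90.4% with Gm17026, Gm9611 and Gm8005, and Gm3594 was 75.7% identical to Gm17026. The other 34 pairs of promoters aligned over 9 to 50 columns only, so the promoters of Gm3629 and Gm7995 and the first starts of Gm2959 and Gm8126 showed no such likeness. Likeness outside the promoters was not tested, and whether Gm3629 and Gm7995 are copies of the others was not shown.

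Among all 32851 promoters of the table, 72 (0.219%) held the shared run on either strand. All 72 lay on chromosome 14 and all had it in the direction of the gene. They belonged to 69 genes. The palindrome TGACGTCA, the binding element of the CREB family of cyclic AMP-responsive factors, was also searched. Among the 11 promoters it lay in the second of Gm8126 only, where it overlapped the last 2 bases of the shared run, and 1.79% of all promoters held it. A match of letters shows neither binding nor its absence.

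All 9 genes carried a peak in pair 1 and all 9 in pair 2, where the share over 21774 protein-coding genes was 6.28% in pair 1 and 33.8% in pair 2. At least 70% of the gene was covered by peaks for 8 of the 9 in each pair, the same 8 genes, all but Gm3629. Over protein-coding genes that share was 1.06% in pair 1, 1.27% in pair 2 and 0.680% in both. Over those of chromosome 14 alone it was higher, at 3.41%, 4.71% and 2.35%. The 20 genes of chromosome 14 behind the last share include these 8. Inside 1 unbroken peak lay 6 of the 9 in pair 1 and 5 in pair 2, compared with 0.795% and 0.928% of protein-coding genes. On chromosome 14 these shares were 2.59% and 2.82%. Gm3594, Gm17026, Gm9611 and Gm8005 lay inside 1 peak in both pairs. The 9 genes are not independent of each other, since 5 of them touched the same pair 1 peak and Gm8005 lies within the span of Gm2959 on the opposite strand.

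**Figure D1:**
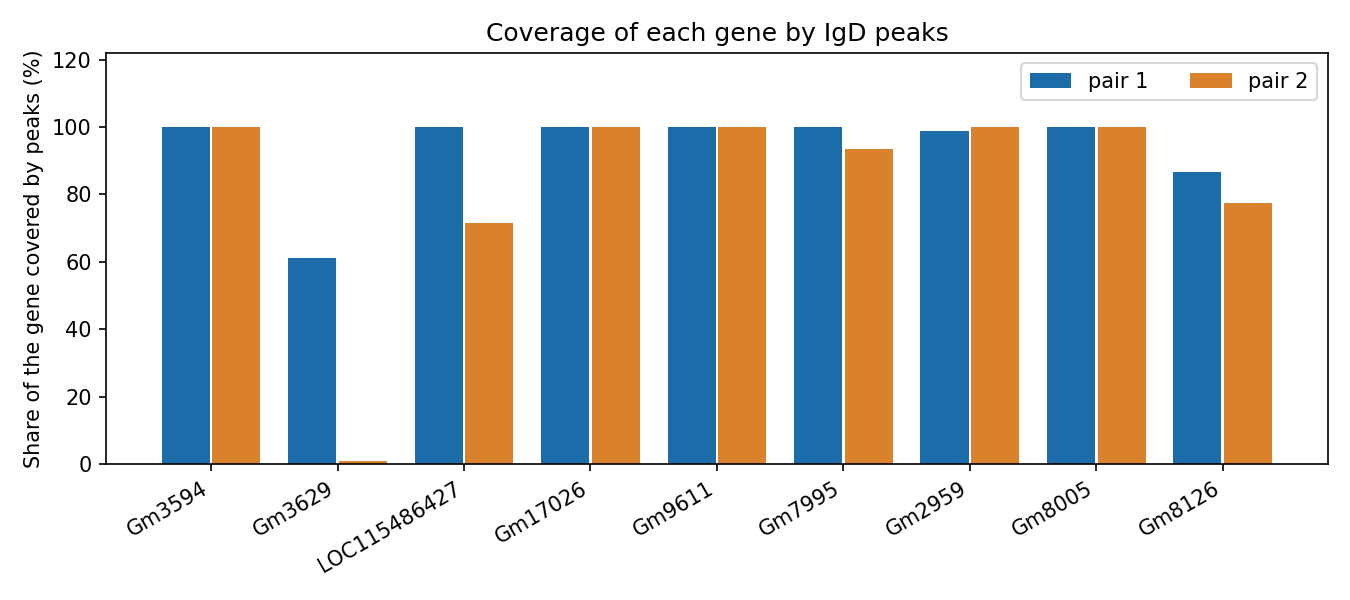
Share of each gene covered by IgD peaks in percent, in chromosome order, for pair 1 and pair 2 (1 list per pair, no error bars). Gm3629 stands apart, with 61.1% covered in pair 1 and 0.766% in pair 2, while the lowest value among the other genes is 71.5%.

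With 50000 bp added on both sides, the 9 genes formed 5 windows of 0.859 Mb in all. Pair 1 had 40 peaks there, which covered 86.4% of the bases, and pair 2 had 41 peaks, which covered 66.2%. In pair 1, peaks covered 2.46% of chromosome 14 and 1.64% of all chromosomes, and in pair 2 they covered 3.95% and 2.83%. Bases covered in both lists came to 63.8% of the windows, compared with 1.35% of chromosome 14. The number of peaks per Mb was less uneven than the coverage, because a few very long peaks held most of the bases. Of the peaks in the windows, 6 in pair 1 and 7 in pair 2 were 20000 bp or wider.

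**Figure D2:**
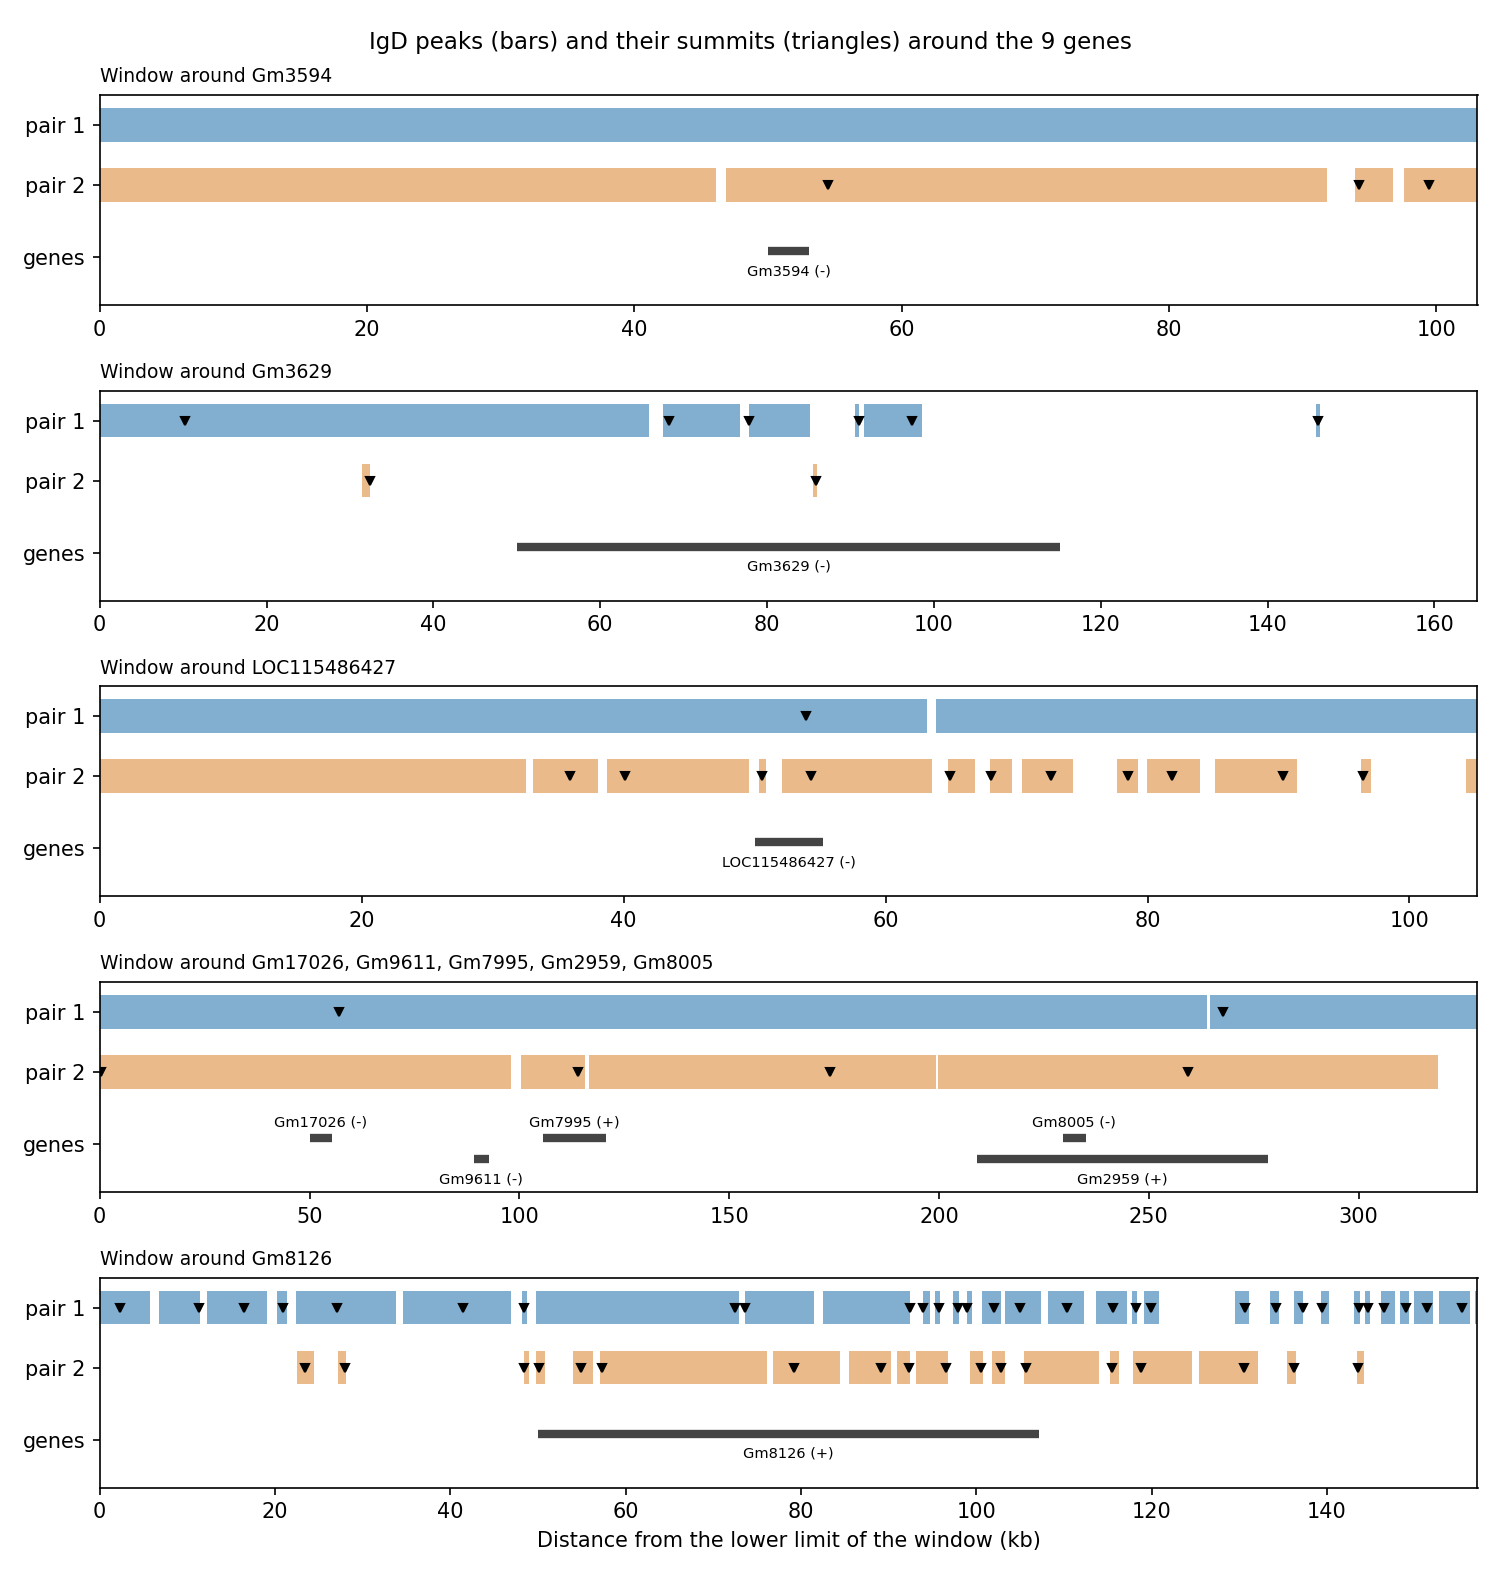
Peaks of pair 1 and pair 2 (bars, cut at the window limits), their summits (triangles) and the 9 genes with their strand, in the 5 windows; the horizontal axis is the distance in kb from the lower limit of each window. Long blocks fill the windows of Gm3594 and of the group from Gm17026 to Gm8005 in both pairs, the window of Gm8126 holds 31 peaks over 74.4% of its bases in pair 1 and 18 over 45.2% in pair 2, and pair 2 is nearly empty around Gm3629.

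The densest group, Gm17026, Gm9611, Gm7995, Gm2959 and Gm8005, lay within 228 kb, between 42254653 and 42482971. In pair 1 a peak of 492 kb, from 41976563 to 42468540, held Gm17026, Gm9611, Gm7995 and Gm8005 whole and 79.2% of Gm2959. It contained 12 genes of the table in full, 4 of them protein-coding. Its fold, the enrichment of IgD fragments over the background at the summit as the authors' peak caller gave it, was 11.98, the highest in the windows. The summit lay at 42261655, outside all 5 genes and 1560 bp before the start of Gm17026. A second pair 1 peak of 100 kb began 736 bp further on, with a fold of 6.39 and its summit inside Gm2959.

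Pair 2 divided the same stretch. The 492 kb block of pair 1 met 16 peaks of pair 2, which covered 94.4% of it with folds of 2.43 to 9.46. Gm17026 and Gm9611 shared a pair 2 peak of 110 kb (42192525 to 42302640, fold 8.11). Gm7995 was covered to 66.7% by a peak of 15.2 kb (fold 5.14), with its summit inside the gene, and to 26.7% by the next, of 82.5 kb (42321347 to 42403885, fold 9.46). Gm2959 and Gm8005 lay in a peak of 119 kb (42404463 to 42523632, fold 7.03). The gaps between these 4 pair 2 peaks measured 577, 1000 and 2512 bp.

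Behind these folds stood few fragments. Their number was solved from the deposited fold and p-value together, taking IgD fragments as unscaled and 1 as added to both terms of the fold. So computed, the 492 kb block held 44 IgD fragments at its summit (32.0 to 59.1, exact Poisson interval at 95%), and its background there was 2.756. In pair 2 the summit of the peak over Gm17026 and Gm9611 held 29 (19.4 to 41.6). Those of the peaks over Gm7995 held 18 (10.7 to 28.4) and 34 (23.5 to 47.5). That of the peak over Gm2959 and Gm8005 held 25 (16.2 to 36.9). Only the summits with 18, in Gm7995, and 25, in Gm2959, lay inside a gene of the group. The summit with 29 lay 49758 bp from Gm17026 and 88899 bp from Gm9611. That with 34 lay 53394 bp from Gm7995, and that with 25 lay 24189 bp from Gm8005. Background at these pair 2 summits was 2.699 throughout. These background values are the commonest of their lists, found at 77.5% of all pair 1 peaks and 70.1% of all pair 2 peaks. Intervals cover counting error only, and a fold describes 1 point of a block, not its length.

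LOC115486427 (41962711 to 41967905) lay whole in a pair 1 peak of 197 kb, from 41779043 to 41975889, with a fold of 5.33. Pair 2 had a peak of 11.5 kb (41964769 to 41976278, fold 5.68) over 60.4% of the gene and a weaker one of 578 bp (fold 2.43) over a further 11.1%. The summits of the 197 kb and 11.5 kb peaks lay inside the gene and 387 bp apart, at 41966642 in pair 1 and 41967029 in pair 2. Among the 9 genes this was the smallest distance between summits of the peaks that shared most bases. On either side pair 2 had wider peaks that did not touch the gene, of 169 kb (41776460 to 41945237, fold 5.14) and 125 kb (42016989 to 42141888, fold 8.65), and its 13 peaks in this window came to 124 per Mb. The summits of the 197 kb and 11.5 kb peaks held 24 fragments in pair 1 (15.4 to 35.7) and 20 in pair 2 (12.2 to 30.9), so their intervals overlapped.

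Gm3594 (6441476 to 6444548) lay in a pair 1 peak of 319 kb, from 6315715 to 6634887, with a fold of 8.79 and 32 fragments (21.9 to 45.2). The summit of this peak was 134704 bp away from the gene. In pair 2 the gene lay in a peak of 44.9 kb (6438339 to 6483255) with a fold of 5.41 and 19 fragments (11.4 to 29.7), whose summit was 1407 bp before the start. The pair 1 block reached into Gm3629, and 11 pair 2 peaks covered 73.7% of its length. The pair 2 peak beyond the end of Gm3594, which is on the minus strand, was wider, at 151 kb (6286981 to 6437581, fold 7.84).

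Gm8126 (43209293 to 43266470) had a different structure. It carried 9 peaks in pair 1 and 10 in pair 2, which covered 86.6% of it in pair 1 and 77.5% in pair 2. The widest, of 23.1 kb in pair 1 (43209044 to 43232174, fold 5.86), covered 40.0% of the gene. A wider pair 1 peak of 38.4 kb (fold 2.96) lay before the gene, at 43126683 to 43165085. Pair 1 peaks were 601 to 23131 bp wide with folds of 2.08 to 6.16, and pair 2 peaks were 987 to 19029 bp wide with folds of 2.28 to 6.47. The solved background was raised at many of these summits. Pair 1 values spanned 2.756 to 9.601 and pair 2 values 2.699 to 7.114, and the commonest level of the list was found at 1 of the 9 and 2 of the 10 summits. Fragments numbered 14 to 27 at pair 1 summits and 12 to 27 at pair 2 summits. The part of the raised background in the lower folds was not tested.

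Gm3629 (6619059 to 6684232) was the exception among the 9. Pair 1 covered 61.1% of it with 5 peaks, of which the end of the 319 kb block took 24.3% of the gene and 3 others of 6.91 to 9.22 kb took 10.6 to 14.1% each. The folds of the 4 peaks with a summit inside the gene were 2.81, 3.10, 2.82 and 5.33. Pair 2 had a single peak of 499 bp in the gene, with a fold of 3.51 and 12 fragments (6.20 to 21.0), which overlapped no pair 1 peak. The nearest summits of the pairs in the gene were 5167 bp apart. In the whole window of this gene, peaks covered 54.7% of the bases in pair 1 and 0.868% in pair 2.

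**Figure D3:**
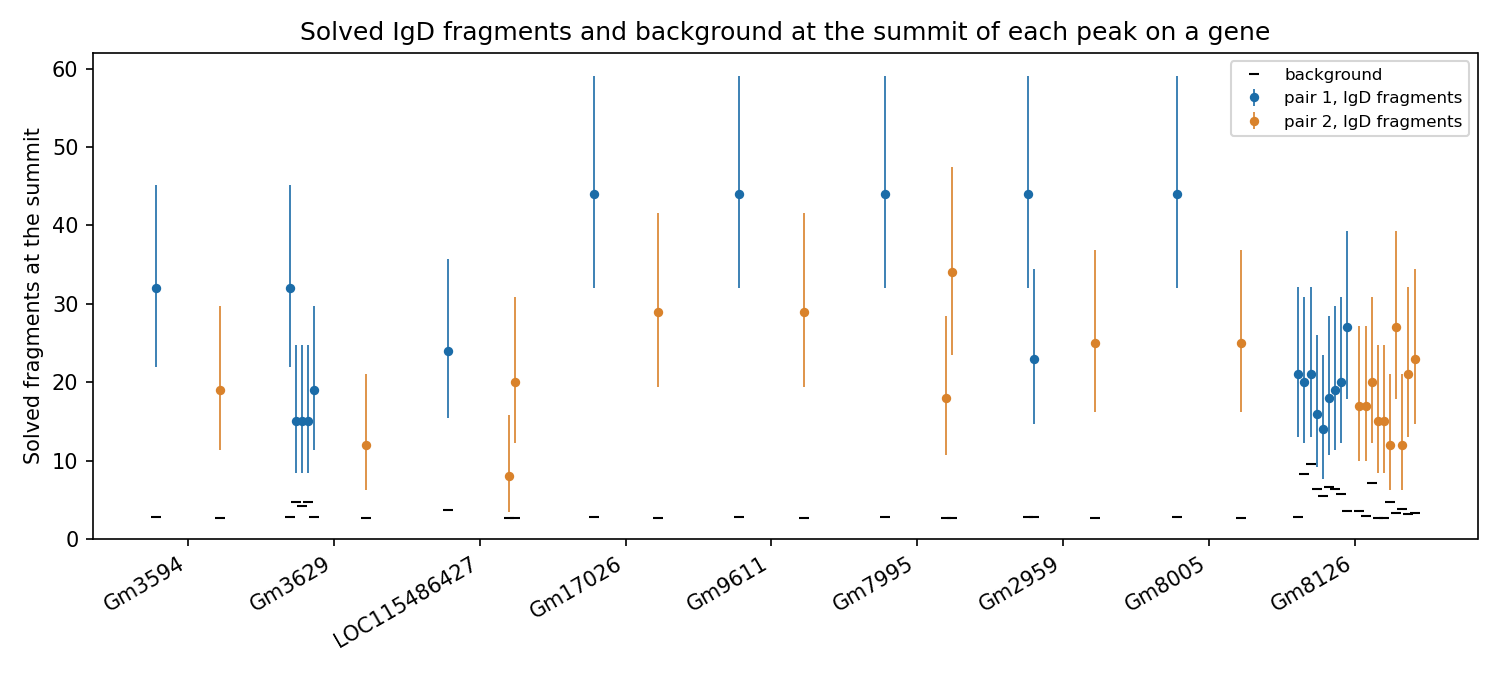
IgD fragments (points) with 95% exact Poisson intervals (bars) and background (short black lines) at the summit of each peak that touches a gene, solved from the deposited fold and p-value; a peak that touches several genes is drawn at each. The 492 kb pair 1 peak with 44 fragments appears at 5 genes, and background lies above the usual level of its list at most summits of Gm8126, at 3 of Gm3629 in pair 1 and at LOC115486427 in pair 1.

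The position of summits relative to the annotated starts was examined next. Of the 11 starts, 10 lay inside a peak in pair 1 and the same 10 in pair 2, all except that of Gm3629, compared with 1.27% and 3.02% of all 32851 starts. A summit within 2000 bp was found for 4 of the 11 in pair 1 and 5 in pair 2, compared with 1.34% and 7.13% of all starts. LOC115486427 and both starts of Gm8126 had one in both pairs. Gm17026 had one in pair 1 only by this limit (1560 bp, against 55200 bp in pair 2), and Gm3594 in pair 2 only (1407 bp, against 134704 bp in pair 1).

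The nearest of all was at the second start of Gm2959, where the pair 2 summit at 42463885 lay 2 bp past the start at 42463883. This start lies within Gm2959, whose first start is at 42413626. In pair 1 the nearest summit to this start was 8379 bp away. The promoter in question (chr14:42463633-42463932, plus strand, its last 50 bases from the start onwards) lies wholly within the gene. It is shown whole because the summit falls within it, with the shared run in capitals, 50 bases before the start.

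Gm2959, start 2: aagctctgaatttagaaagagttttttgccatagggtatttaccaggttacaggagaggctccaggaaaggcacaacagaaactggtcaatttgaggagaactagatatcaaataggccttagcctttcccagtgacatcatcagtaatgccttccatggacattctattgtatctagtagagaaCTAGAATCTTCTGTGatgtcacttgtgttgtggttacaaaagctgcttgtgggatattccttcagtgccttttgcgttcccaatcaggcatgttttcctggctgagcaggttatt

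**Figure D4:**
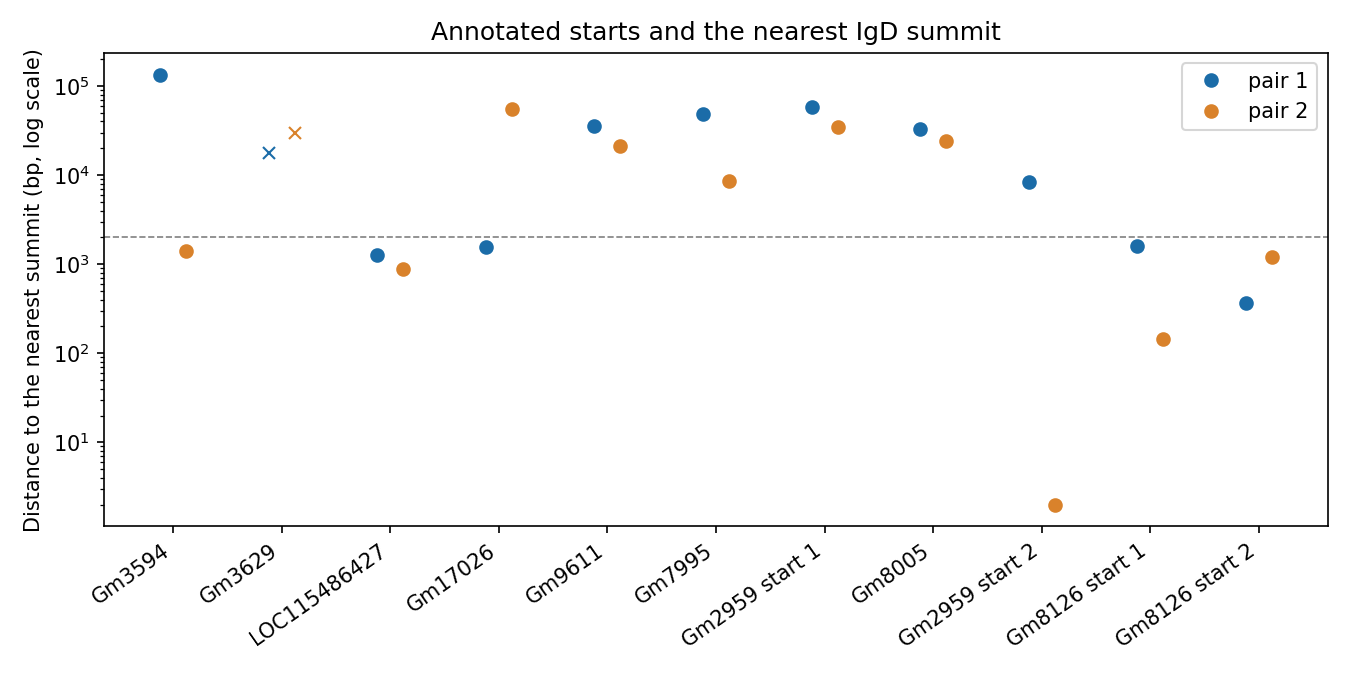
Distance in bp (log scale) from each of the 11 annotated starts to the nearest summit of pair 1 and pair 2; circles mark starts inside a peak, crosses starts outside, and the dashed line is at 2000 bp. Only LOC115486427 and the 2 starts of Gm8126 lie under the line in both pairs, and the lowest point is the second start of Gm2959 in pair 2, at 2 bp.

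The positions of peaks and summits were compared between the pairs. In the windows, 21 of 40 peaks in pair 1 (52.5%) met a peak of pair 2, and 40 of 41 in pair 2 (97.6%) met one of pair 1. Pair 1 peaks covered 86.4% of the window bases, so a pair 2 peak there had little room to miss one. The share over all peaks of the lists is not given here, so these counts are no measure of agreement. For each gene the overlapping peaks that shared most bases were taken. Their summits lay 0.387 kb apart for LOC115486427, 15.1 kb for Gm8126, 56.8 kb for Gm17026 and Gm9611, 117 kb for Gm7995, 133 kb for Gm3594 and 202 kb for Gm2959 and Gm8005. Between any peaks on the gene, the nearest summits were 8377 bp apart for Gm2959, 57076 bp for Gm7995 and 128 bp for Gm8126. Within 200 bp of a pair 2 summit lay 5 of the 40 pair 1 summits, without the share over the whole list beside it. All were in the window of Gm8126, which held 31 pair 1 and 18 pair 2 peaks. Of these 5, 1 lay inside Gm8126, at 43251739 in pair 1 (fold 2.08) and 43251611 in pair 2 (fold 2.28), 128 bp apart.

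Other genes with the shared promoter run were examined next. The run was taken from promoters of genes that the peaks had chosen, so coverage of the 7 described genes is fixed by that choice. Of the 69 genes that carry it, 7 were among those described so far and 62 were others, and 56 of the 62 have Gm or LOC names. As protein-coding, 49 of the 62 are annotated. The 69 lie in stretches at 3 to 8 Mb and 41 to 45 Mb, with a few at 20 and 52 Mb. At least 70% of the gene was covered in both pairs for all 7 described genes and for 11 of the 62 others (17.7%). Over all protein-coding genes this share was 0.680%, and over those of chromosome 14 it was 2.35%. The 11 are not all free of that choice. In pair 1, Gm7980 and 1700049E17Rik1 lie in the 197 kb peak that holds LOC115486427. The 492 kb peak also holds 1700091H14Rik, Gm7951 and Gm17027, and the 319 kb peak holds LOC108168187. The shares over the 62 therefore partly reuse the peaks that chose the genes. A peak lay on 21 of the 62 in pair 1 (33.9%), where the share was 6.28% over all protein-coding genes and 9.18% over those of chromosome 14. In pair 2 a peak lay on 27 (43.5%), against 33.8% and 36.4%, a share near the background. No peak in either pair lay on 29 (46.8%). Of 850 protein-coding genes of chromosome 14, 78 had a peak in pair 1, 309 in pair 2 and 57 in both. Most of the 850 thus had none in either pair, so 46.8% is no excess of genes without a peak. Whether the 62 are alike beyond the run was not tested.

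Coverage was uneven among the 69 genes. In chromosome order, 10 successive genes of the 69, from Gm7980 to Gm8005 (41901807 to 42482971), 5 of them described here, were covered to at least 70% in both pairs. In pair 1 these 10 lay in the 197 kb, 492 kb and 100 kb peaks described above, so they are not independent of each other. Of the 14 genes beyond Gm8126, from Gm8138 to 4930431P03Rik, pair 1 had a peak on 0 and pair 2 on 4, Gm5799, Gm8212, Gm8229 and Gm8232. Over protein-coding genes of chromosome 14 the share with a peak was 9.18% in pair 1 and 36.4% in pair 2. With 14 genes only, both counts are near these shares and show no lack of peaks. At 3 to 8 Mb the pairs differed at some genes. Gm3476 and Gm3424 were covered to 100% in pair 2 and had no peak in pair 1, while Gm8246 was covered to 74.9% in pair 1 and had none in pair 2. How far each gene can be reached by reads that match a single place was not tested.

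**Figure D5:**
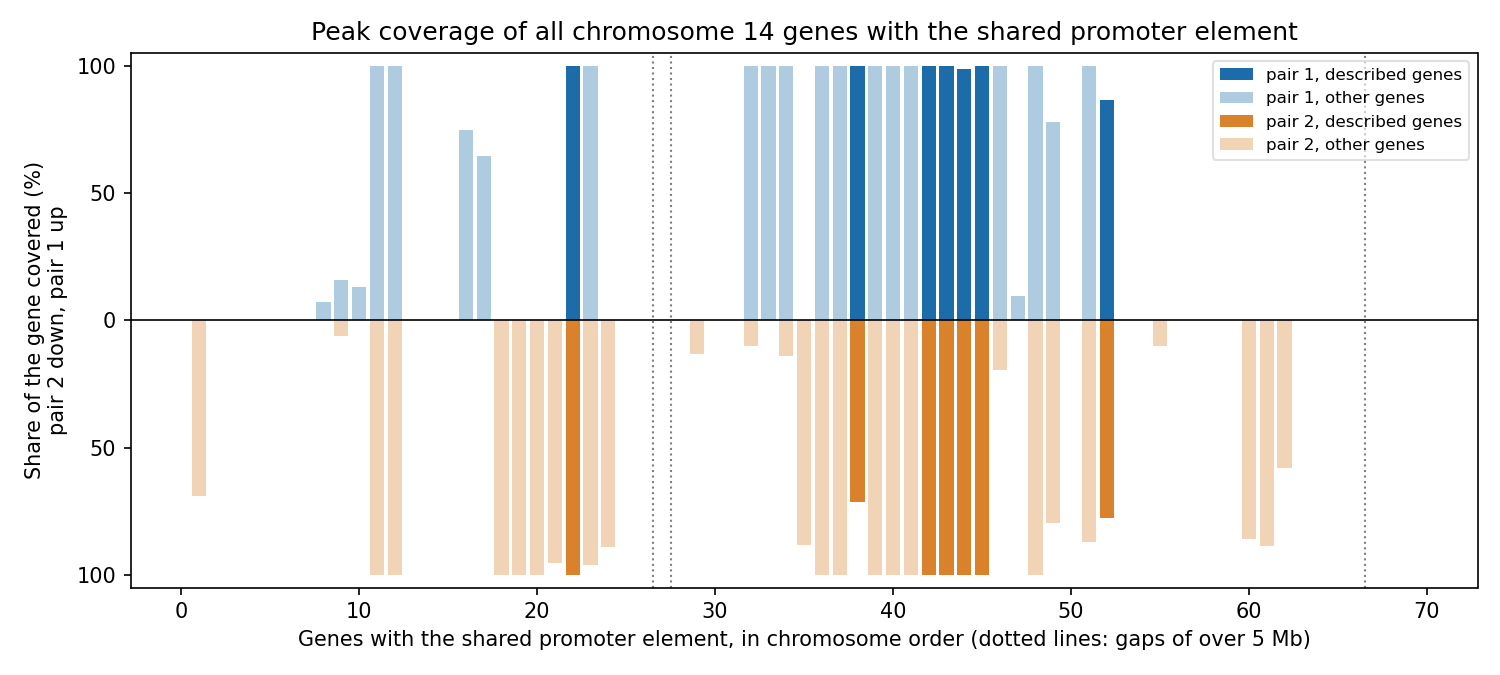
Share of the gene covered by peaks in percent, pair 1 upwards and pair 2 downwards, for the 69 genes of chromosome 14 with the shared promoter run in chromosome order; dark bars are the 7 described genes, pale bars the 62 others, and dotted lines mark gaps of over 5 Mb. All 7 dark bars reach at least 70% in both directions, as do 11 of the pale ones, and 29 pale positions are empty.

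Other genes in the windows were covered as well. Besides the 9, 23 genes of the table reached into the windows, 6 of them protein-coding. The windows were drawn around genes that the peaks chose, so coverage of the 23 is not free of that choice. Inside 1 peak lay 10 of the 23 in pair 1 and 6 in pair 2. Over protein-coding genes this share was 0.795% and 0.928%, and over those of chromosome 14 it was 2.59% and 2.82%. Most of the 23 are not protein-coding, so these shares describe an unlike set, and those of other gene types are not given here. The 6 were among the 10: Lamtor3-ps, LOC115488376, 1700049E17Rik1, Gm46449, Gm2951 and Gm8020. Of these only 1700049E17Rik1 carries the shared promoter run. Dlg5, another gene of chromosome 14, which encodes a membrane scaffold protein, had 1 peak over 0.652% of its length in pair 1 and 0 in pair 2.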

How the data were processed

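Per the submitters' processing notes, HISAT2, MACS2 and ChIPseeker were used on mm10, without versions or settings. Fold enrichment (a ratio), -log10 p and -log10 q at each summit were deposited by the authors' peak caller. The lists end at a -log10 q of 1.31 (pair 1) and 1.30 (pair 2). Replicates were not pooled, library depths were not used here, and no rows overlapped within a list.

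The 9 genes, the gene lists and the limits of 70%, 2000 bp and 20000 bp were chosen with earlier results of these data known. Gene positions came from RefSeq on GRCm38.p6, the assembly that mm10 names, on the numbered, X and Y chromosomes, without 348 genes on scaffolds. Fragments were solved from fold, taken as (fragments + 1) / (background + 1), and from p, taken as the upper Poisson tail, for 11374 of 11375 pair 1 peaks and all 40628 of pair 2 within 0.001 of the deposited -log10 p. On data simulated with the same formulas, the method recovered 300 of 300 fragment counts, which checks the computation but not its assumptions. Gene coverage was recovered in 200 of 200 simulated cases. Promoters were aligned locally, not globally as planned (match 2, mismatch -3, gap opening -5, extension -2). Likeness of proteins was not analysed here. Genes named were the 9, Dlg5, window genes inside a peak in both lists and, chosen after their values were seen, examples with the promoter run. Python 3.11.15, numpy 2.4.6, pandas 2.3.3, scipy 1.17.1, Biopython 1.88 and matplotlib 3.10.9 were used.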

Additional observations from a re-analysis of the deposited data

How the results depend on the processing

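The 9 genes with a peak in both pairs became 8 at a -log10 q of at least 5, at a fold of at least 5 and with pair 2 reduced to the list length of pair 1. Under those settings the 4 genes inside 1 peak in both pairs stayed at 4, and the 4 with a summit inside in both became 3. Each pair alone gave 9 genes with a peak, 5 to 6 inside 1 peak and 4 to 5 with a summit inside. The 4 in pair 1 and 5 in pair 2 with a summit inside compare with 5.33% and 31.9% of protein-coding genes. The 4 with a summit inside in both pairs compare with 4.35% of protein-coding genes of chromosome 14. The 81 peaks in the windows of both lists became 40 at a -log10 q of at least 5, 28 at a fold of at least 5, 35 in the genes alone and 44 within 10000 bp, by construction of narrower limits, and each pair alone had 40 to 41. Bases covered in either list, 762963 in all, were 197178 in the genes alone and 337654 within 10000 bp. Each pair alone covered 568372 to 742447, and its highest fold was 9.46 to 11.98. The 21 pair 1 peaks that overlapped pair 2 became 8 when both lists were held to that q limit, 4 with 50% reciprocal overlap, 5 with summits within 200 bp, 11 with summits within 1000 bp and 12 in the genes alone. Of the genes with the promoter run, 18 were covered to at least 70% in both pairs. At limits chosen after seeing the data, 14 to 18 were covered, and 23 to 26 in each pair alone. Of 52 values under alternatives, 38 stayed within 1.5 times the reported one or, for the highest fold, within the SD of the pairs. No paired analysis was possible because each IgD library had already been set against its IgG library in the deposited lists. Few fragments per summit limit the precision of every fold.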
